A study of Homo sapiens with 9 samples.

Results

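UNC6852 is a PROTAC, a small molecule that brings the EED protein, a core subunit of Polycomb repressive complex 2, to the VHL ubiquitin ligase so that EED is degraded. The question addressed here is which transcripts differed with this degrader. Human pluripotent cells were moved out of naive conditions with UNC6852 or with the vehicle dimethyl sulfoxide (DMSO). The comparison used the 3 PROTAC libraries and the 3 DMSO libraries, 6 of the 9 libraries of the series, and covered the 24187 genes that passed the expression filter. All cells were wild-type HNES1, an embryo-derived naive human pluripotent stem cell line, so both groups stand for 1 line. They had been kept on mouse feeder cells in PXGL, a naive medium built on a MEK inhibitor, the tankyrase inhibitor XAV939, a protein kinase C inhibitor and LIF, and were then seeded on Geltrex. UNC6852 at 2.5 µM or an equal volume of DMSO was added 24 h before day 0, when PXGL was replaced by N2B27 with XAV939, and was renewed daily until harvest on day 5. The other 3 libraries received UNC1999, an inhibitor of the EZH1 and EZH2 enzymes, at 1 µM on the same schedule. They shared in the estimate of spread and are cited only for single genes.

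Polycomb repressive complex 2 places methyl groups on lysine 27 of histone H3, a mark found over silent developmental genes. EZH2 or EZH1 carries the catalytic site, SUZ12 holds the complex together and EED binds the finished mark and stimulates the enzyme. Human naive cells carry much of this mark, and removing the complex is known to ease the entry of naive cells into trophoblast-like and other fates. No protein or chromatin measurement was analysed here.

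Libraries held 31651742 to 93642763 counts, with the 3 of the degrader at 93642763, 73258536 and 31651742. Libraries that carried the same replicate number deviated together: the first principal component, 26.7% of the variance, set the number 1 libraries apart, and the third PROTAC library, the shallowest, stood alone on the second (18.5%). POU5F1 (687 to 792 CPM, reads of the gene scaled to the library total) and NANOG (442 to 479 CPM), markers of the labelled cell type, were present in all 6 libraries. The naive markers KLF17 (25.1 to 44.4 CPM) and DPPA5 (159 to 204 CPM) were still present on day 5. The primed markers ZIC2 (35.0 to 54.4 CPM) and SFRP2 (92.7 to 110 CPM) were present as well. SOX17, an endoderm marker, was at most 0.131 CPM, and the fibroblast genes COL3A1 and DCN at most 0.042 and 0.014 CPM. Other markers of the same types were present: GATA4 (endoderm) at 4.09 to 7.16 CPM and COL1A1 (fibroblast) at 60.3 to 103 CPM. So were TBXT (mesoderm, 2.13 to 6.98 CPM), ISL1 (amnion, 1.82 to 2.42 CPM) and CGA (trophoblast, 1.67 to 24.6 CPM). The neural markers PAX6 and SOX1 were at most 0.306 and 0.288 CPM. Among lists of other cell types, summed levels overlapped between the groups for trophoblast (925.5 to 1097 CPM with DMSO, 998 to 1048 with UNC6852), amnion, mesoderm and fibroblast genes. They did not overlap for endoderm (1170 to 1177 against 1196 to 1265 CPM) and neural genes (547 to 589 against 594 to 629 CPM). A sum is weighted to the most abundant members, and most members did not follow it. Of the endoderm genes 8 had a positive and 9 a negative fitted value (median log2 fold change -0.01). Of the neural genes 10 were positive and 14 negative (median -0.06). The part of other cells in any result was not tested, and in bulk RNA fewer cells of a type cannot be told apart from less RNA per cell.

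With the groups compared without regard to number, no gene passed: 0 of 24187 (0%) were called at a false discovery rate of 0.05 in edgeR's quasi-likelihood test, and the lowest adjusted p was 0.328. At an unadjusted p under 0.05 there were 1200 genes, 697 higher and 503 lower with the degrader, and DESeq2 called 13 higher and 10 lower. With the replicate number as a block (the paired fit), 486 genes were higher (2.01%) and 238 lower (0.984%), 724 in all (2.99%). The numbers were treated as pairs because each same-number pair of DMSO and PROTAC libraries deviated together. All 724 moved one way in the 3 pairs, which a call in this fit favours. In 457 of them the 3 libraries of one group lay wholly above the other 3, beside 11.5% of all genes tested. A call on these same libraries favours that too, so the comparison adds no separate support. In what follows, "rose" and "fell" mean called in the paired fit, and each adjusted p is from it. Each count of list members stands beside 2.01% of all genes rising and 0.984% falling. The p-values of the paired fit measure the spread left in all 9 libraries of 1 line after the replicate number is taken out. The fit by group alone, which keeps the spread between the 3 biological replicates, called 0 genes.

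The changes were small. The median log2 fold change of the genes that rose was 0.25 and that of the genes that fell was -0.39, beside -0.01 for all genes. Only 3 rises reached 2-fold, ARGFX, PLA2G4A and COL11A1, the latter both below 1 CPM and named after their values were seen, against 15 falls. The direction depended on scaling: 67.1% of called genes were higher with TMM scaling, but 54.2% with upper-quartile scaling (308 higher, 260 lower) and 50.7% with library size alone (273 and 265). Leaving out 1 library lowered the 486 rises and 238 falls to 154 and 81 without the third DMSO library, 201 and 117 without the third PROTAC library, 248 and 122 without the first PROTAC library and 279 and 164 without the second DMSO library. Without the second PROTAC library there were 327 and 146, without number 2 in all groups 91 and 56, and without number 3 there were 99 and 66. No called gene changed sign in any of these fits. That follows largely from the call, since every called gene moved one way in all pairs, and adds no separate support.

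**Figure D1:**
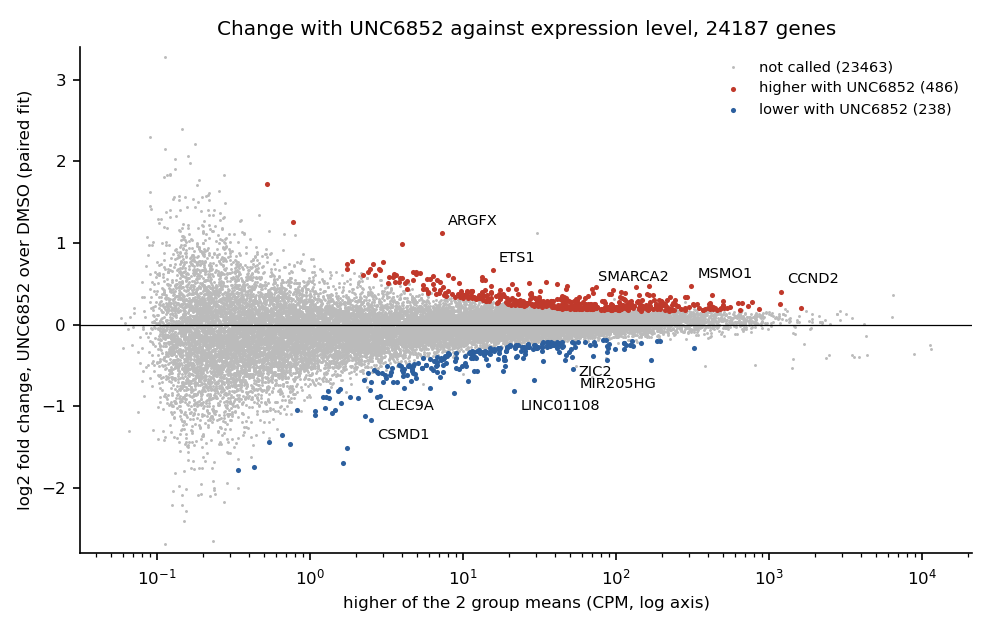
Each point is 1 of 24187 genes, with the higher of the 2 group means in CPM on a log axis and the log2 fold change of UNC6852 over DMSO from the paired fit on the vertical axis. Genes that rose (red, 486) and fell (blue, 238) lie mostly within 1 log2 unit of 0, and ARGFX and CSMD1 lie farther out.

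The transcripts of the targeted complex did not differ detectably. EED measured 11.1, 11.3 and 12.5 CPM with DMSO and 12.4, 12 and 12.7 CPM with UNC6852; the fitted log2 ratio was 0.09 (SE 0.08) with an adjusted p of 0.67. The 2 groups overlapped. Because UNC6852 acts on the EED protein, this level checks no label. EZH2 (0.13), EZH1 (-0.07) and SUZ12 (0.06) were likewise not called, and of the 6 core subunits tested 0 were. Of 8 accessory subunits tested, 2 rose: LCORL (0.27, adjusted p = 0.018) and EPOP, an elongin-binding partner of the complex (0.29, adjusted p = 0.047). EPOP measured 10.4, 11.5 and 12.5 CPM with DMSO and 12.6, 13.4 and 16.4 CPM with the degrader, so the groups did not overlap. LCORL overlaps NCAPG, which measured -0.08 and was not called. With UNC1999 EPOP had a log2 fold change of -0.22, and the degrader and inhibitor differed by 0.51 (adjusted p = 0.000135). Both fold changes use the same DMSO libraries, and the doses differ.

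Among called genes that have a symbol and reach 1 CPM on average in either group, the largest rise was that of ARGFX, a PRD-like homeobox gene of the cleavage-stage embryo (GRCh38, chromosome 3, 121567949 to 121590622, + strand). It measured 2.65, 3.33 and 4.22 CPM in the 3 DMSO libraries and 6.26, 7.30 and 8.27 CPM in the 3 PROTAC libraries. Every library with the degrader lay above every one with the vehicle, and the ratio held in each pair (log2 1.23, 1.13 and 0.97). The paired fold was 2.18 (log2 1.12, SE 0.11, adjusted p = 5.01e-08). With UNC1999 the log2 fold change was 1.68, larger by 0.55 (adjusted p = 0.000317). Of 20 PRD-like and cleavage-stage genes tested, 2 rose, ARGFX and KLF17, 0 fell and the median was 0.28; without the first DMSO library 1 rose and the median was 0.08, and without number 1 the median was 0.13. KLF17, a naive marker, measured 32.6, 25.1 and 34.5 CPM with DMSO and 44.4, 30.1 and 38.2 with UNC6852 (0.29, adjusted p = 0.00621), so it rose in each pair while the groups overlapped.

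Of 24 neural ectoderm and crest genes tested, 3 rose and 0 fell (2.01% and 0.984% of all genes), with a median of -0.06. The sign of that median was not stable: it was 0.02 without the second PROTAC library and -0.14 without the third, and 1 gene rose in each of these fits. Among them NKX6-1, a homeobox factor of the ventral neural tube and pancreas, measured 0.971, 1.33 and 0.778 CPM with DMSO and 1.66, 1.78 and 1.80 CPM with UNC6852, without overlap (0.74, adjusted p = 0.0305). CNTN1 (0.77), a neuronal adhesion molecule, GDA (0.77), the guanine deaminase, MMP16 (0.75), a membrane metalloprotease, ONECUT2 (0.68), a transcription factor, HEPH (0.69), a copper-dependent ferroxidase, and TMEM45A (0.67), a membrane protein, also rose. ETS1, a transcription factor of the ETS family (chromosome 11), rose from 11.5, 7.45 and 10.6 CPM to 20.7, 11.2 and 15.1 CPM (0.66, adjusted p = 3.04e-06). In ETS1 the second PROTAC library lay below the first DMSO library, so the groups overlapped although each pair rose. The groups overlapped for CNTN1 and HEPH as well.

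**Figure D2:**
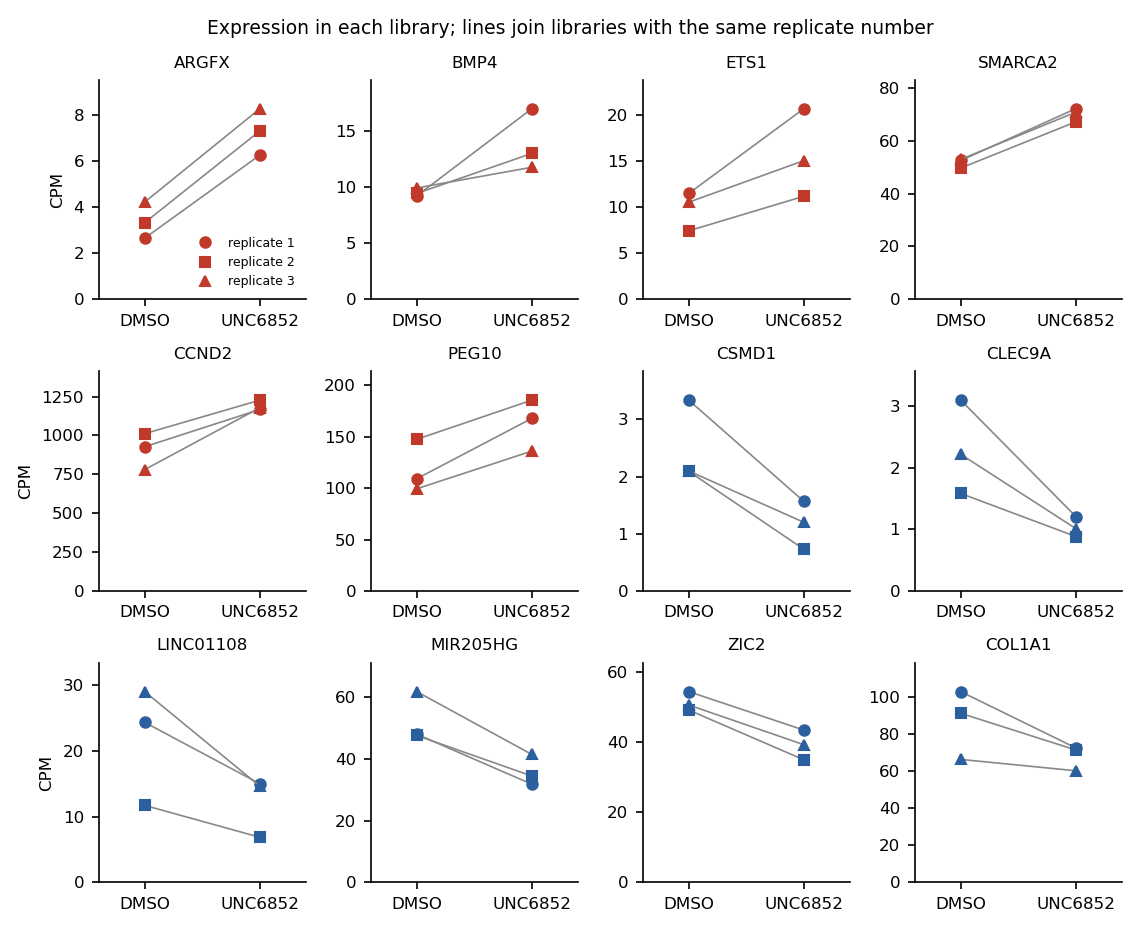
Each panel shows 1 gene in CPM from a baseline of 0, with DMSO on the left and UNC6852 on the right; lines join libraries of the same replicate number. ARGFX, BMP4, SMARCA2 and CCND2 rose without overlap, and CSMD1, CLEC9A, MIR205HG and ZIC2 fell without overlap.

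The list with most called members was cholesterol and fatty acid synthesis, the enzymes and regulators that make and import sterols and lipids. Of 34 genes tested (all 34 listed), 19 rose and 0 fell, with a median log2 fold change of 0.21 beside 2.01% of all genes rising and a median of -0.01 for all genes. The share of all genes that rose was larger at high levels, 2.92% at 20 to 50 CPM and 5.63% at 50 CPM or more. MSMO1, a sterol methyl oxidase, measured 186, 300 and 191 CPM with DMSO and 254, 376 and 297 CPM with UNC6852 (log2 0.47, SE 0.06, adjusted p = 8.95e-06). ACSS2, which makes acetyl-CoA from acetate, measured 76.6, 132 and 83.0 CPM with DMSO and 103, 181 and 120 CPM with UNC6852 (0.47, adjusted p = 4.02e-06). For both the second DMSO library was above the lowest PROTAC library, so the groups overlapped, and the change shows within pairs. ACSS2 overlaps GGT7 on the other strand, which measured 0.06 and was not called. By group alone 1 of the 34 reached an unadjusted p under 0.05.

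Enzymes from the first to the last steps of the pathway rose. HMGCS1 (0.37), an early enzyme of the mevalonate route, rose, as did IDI1 (0.36), FDFT1 (0.24), SQLE (0.34), CYP51A1 (0.36), SC5D (0.23) and DHCR7 (0.29) downstream. The sterol sensor INSIG1 (0.37), the transporter STARD4 (0.37) and the master regulator SREBF2 (0.18) rose too, with FASN (0.20) and SCD (0.25) of fatty acid synthesis. ACAT2 (0.26) and HSD17B7 (0.26) rose as well. MVD (0.32, adjusted p = 0.084) did not pass. SREBF1 measured 0.05 and PMVK -0.01. With UNC1999, ACSS2 measured 0.07, and the 2 compounds differed by 0.40 (adjusted p = 1.73e-05); for MSMO1 the difference was 0.19 (adjusted p = 0.072). The count of 19 was 12 without the third DMSO library, 11 without number 2, 9 without number 3 and 15 to 20 under other scalings.

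**Figure D3:**
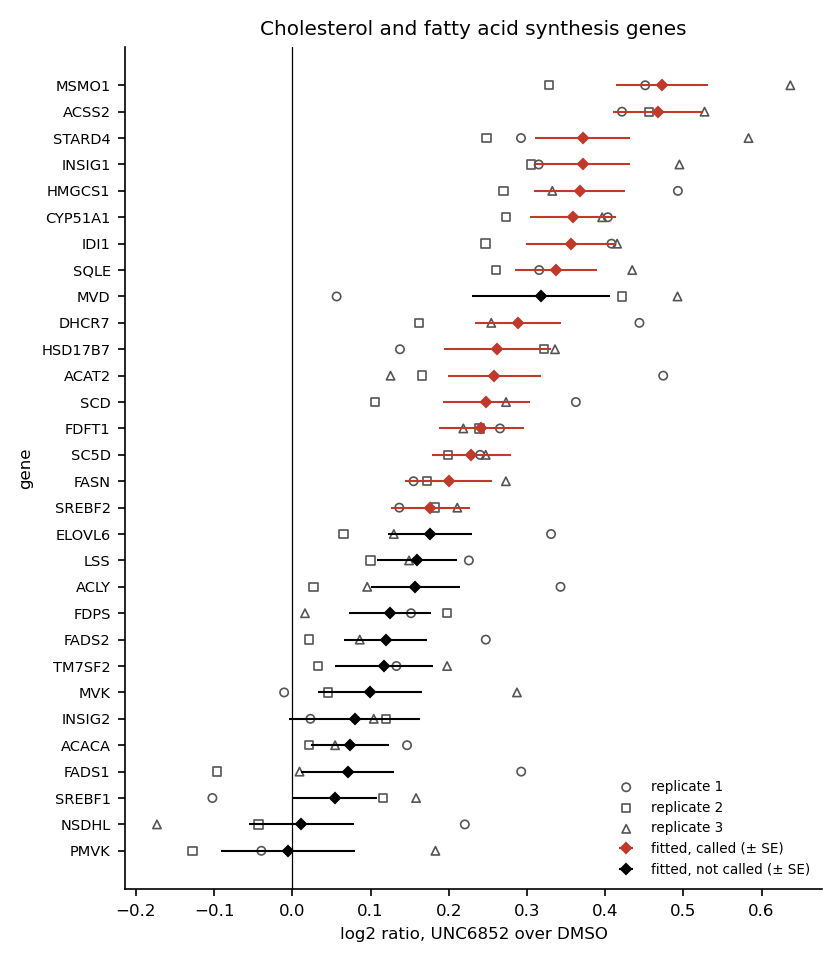
Rows are 30 genes of cholesterol and fatty acid synthesis, and the horizontal axis is the log2 ratio of UNC6852 over DMSO; open symbols are the 3 pairs and diamonds the fitted value with its SE, red where called. Fitted values run from -0.01 (PMVK) to 0.47 (MSMO1), with 29 of 30 above 0.

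The sterol regulator SREBP binds a promoter element, searched here in the 250 bases before the start of the 12 called sterol genes with a RefSeq promoter sequence (GRCh38.p14; windows of 1 chromosome were left out). The form TCACNCCAC, on either strand, was in 1 of the 12 (SREBF2) and in 0.883% of all 35116 windows. The shorter form CACNCCAC, which lies inside the first, was in 5 of the 12, in 1 of 14 uncalled list members (ACACA) and in 4.87% of all windows. In all, 4 forms were tried, and the shorter one is shown because it has the most matches, so its share supports nothing. A longer form, the first with A before it and C as its free base, matched SREBF2 alone of the 12 and 0.0342% of windows, and the looser TCACNCNAC matched ACSS2, HSD17B7 and SREBF2, 2 of the 14 uncalled members (FDPS, FADS2) and 2.02% of windows. A match is a string of letters, not a shown binding site. The 5 windows follow on the strand of the gene, with the match (either orientation) in capitals.
IDI1 (chr10:1048949-1049046, - strand): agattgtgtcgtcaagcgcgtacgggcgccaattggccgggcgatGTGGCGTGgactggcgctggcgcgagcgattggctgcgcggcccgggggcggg
INSIG1 (chr7:155297628-155297722, + strand): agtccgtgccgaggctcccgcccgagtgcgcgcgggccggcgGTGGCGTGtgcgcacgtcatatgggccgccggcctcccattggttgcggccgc
SC5D (chr11:121292739-121292836, + strand): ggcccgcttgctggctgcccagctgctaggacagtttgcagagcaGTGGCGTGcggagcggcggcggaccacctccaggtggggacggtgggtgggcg
SCD (chr10:100347074-100347171, + strand): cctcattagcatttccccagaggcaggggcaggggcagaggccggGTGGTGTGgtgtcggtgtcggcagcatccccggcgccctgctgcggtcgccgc
SREBF2 (chr22:41832928-41833025, + strand): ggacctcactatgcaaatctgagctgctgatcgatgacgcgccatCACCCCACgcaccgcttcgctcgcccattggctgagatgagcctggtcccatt

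Stress genes gave the next largest count. Of 32 genes that respond to amino acid shortage or to unfolded proteins, 10 rose, 0 fell and all 32 had a positive fitted value (median 0.17), beside 2.01% of all genes rising and 11578 of 24187 with a positive value. Among all genes at 50 CPM or more the share that rose was 5.63%. HSPA5, the chaperone of the endoplasmic reticulum, measured 529, 718 and 666 CPM with DMSO and 625, 952 and 758 CPM with UNC6852 (0.27, adjusted p = 0.00806), overlapping between groups. PHGDH (0.24) and PSAT1 (0.25) of serine synthesis, ASNS (0.23), the asparagine synthetase, and DDIT4 (0.29), an inhibitor of mTORC1, rose. ATF4, the factor that drives many of these genes, measured 0.13 (adjusted p = 0.202). This count was 2 without the second DMSO library, 3 without the third, 5 without the first or second PROTAC library, 6 without the third, and 2 without number 2 or number 3.

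VHL is the ligase that UNC6852 recruits, and its natural substrate is the hypoxia factor HIF1A; any part of it in the changes was not tested. Of 13 genes of that ligase and HIF regulation, 0 were called; VHL measured -0.03 and HIF1A 0.06. Of 36 hypoxia and glycolysis genes, 8 rose and 0 fell (median 0.10), beside 2.01% and 0.984% of all genes. P4HA1, a collagen prolyl hydroxylase, measured 74.7, 76.2 and 58.5 CPM with DMSO and 92.4, 90.6 and 86.9 CPM with UNC6852, without overlap (0.37, adjusted p = 0.00074). ERO1A (0.28), LDHA (0.26), PLOD2 (0.30), BNIP3 (0.21) and PGK1 (0.22) also rose, while VEGFA measured 0.08 and CA9, below 1 CPM, 0.38 without passing. With UNC1999 P4HA1 measured 0.41 and the compounds differed by -0.04 (adjusted p = 0.868). The count of 8 was 2 without the first DMSO library, 3 without the third, 3 without the first PROTAC library, 4 without the third, and 3, 5 and 1 without numbers 1, 2 and 3.

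Counts from the 13 mitochondrial mRNAs were lower with the degrader but did not pass. Mitochondrial counts were 4.51% ± 0.526 of each library with DMSO (SD, n = 3) and 3.44% ± 0.237 with UNC6852 (n = 3), without overlap (two-sided exact permutation p = 0.1, the smallest this design allows). MT-CO1 measured 12363, 11363 and 10794 CPM with DMSO and 8276, 10437 and 9375 CPM with UNC6852 (-0.30, adjusted p = 0.059). All 13 had negative values (median -0.39), 12 lay lower without overlap, beside 1316 of all 24187 genes, and 0 were called, with adjusted p from 0.056 to 0.502. The number called lower depended on the fit. It was 9 of 13 without PROTAC library 2, 3 without DMSO library 3, 6 without number 2 and 5 without number 3. It was 6 in the fit of only the 6 libraries, 3 with no filter and 2 with RLE scaling. It was 0 without DMSO library 1 or 2, without PROTAC library 1 or 3, and without number 1 (median -0.27). With DESeq2, limma-voom, upper-quartile scaling, library size alone or thinned counts 0 were called. Of 74 nuclear genes of oxidative phosphorylation 0 were called (median 0.05), and of 85 cytosolic ribosomal protein genes 1 rose.

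**Figure D4:**
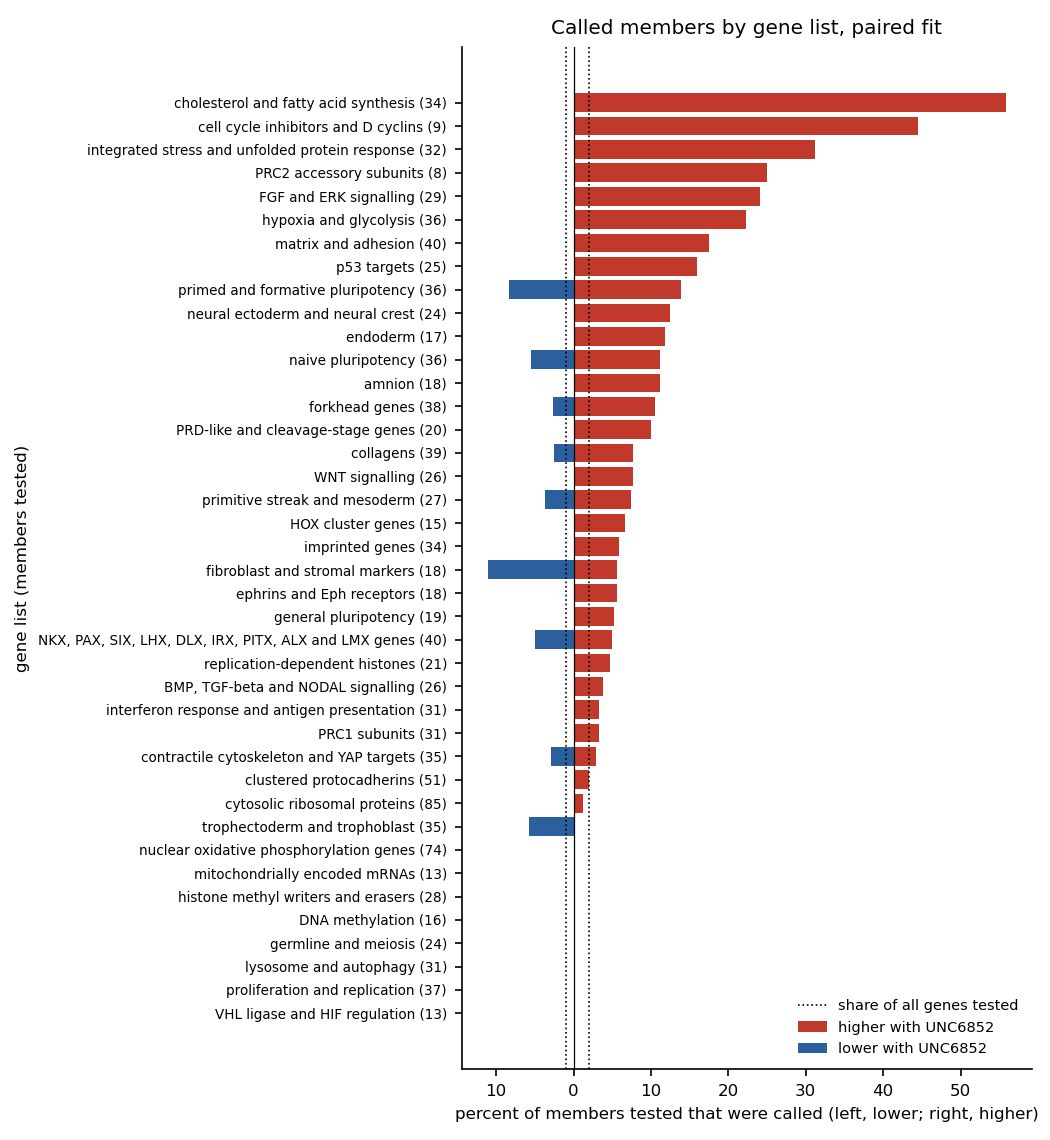
Bars give the percent of tested members of each list called higher (red, right) and lower (blue, left) in the paired fit, with lists of under 8 tested members left out; dotted lines mark the shares for all genes, 2.01% and 0.984%. The cholesterol list stands farthest to the right with 19 of 34.

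Called members of the growth and signalling lists rose, where 2.01% of all genes rose and 0.984% fell. CCND2, a D cyclin that drives entry into the cell cycle (chromosome 12), measured 927, 1011 and 780 CPM with DMSO and 1167, 1227 and 1178 CPM with UNC6852. The groups did not overlap (0.40, SE 0.06, adjusted p = 5.16e-05), and an overlapping entry on the same strand, ENSG00000285901, rose as well (0.33), so their reads cannot be told apart. CCND1 (0.30) and the inhibitors CDKN1C (0.41) and CDKN1A (0.27) rose, 4 of 9 tested genes of that list, while 0 of 37 proliferation genes were called (median 0.03). Of 29 FGF and ERK genes 7 rose and 0 fell (median 0.09), among them the ligands FGF4 (0.28), FGF13 (0.34) and FGF19 (0.32), the receptor FGFR4 (0.25) and the immediate early gene EGR1 (0.43). FGF4 measured 160, 162 and 167 CPM with DMSO and 204, 188 and 204 CPM with UNC6852, without overlap. With 1 library left out this list gave 3 (without the second PROTAC library) to 7 rises, and 2 without number 2. Among 25 p53 targets, 4 rose: PLK2, CDKN1A, SESN1 and TP53INP1 (0.19 to 0.31), a count that ranged from 0 to 7 with 1 library left out. BMP4, a ligand that patterns mesoderm and amnion, rose from 9.19, 9.41 and 9.90 CPM to 16.9, 13.0 and 11.7 CPM (0.55, adjusted p = 0.000493).

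Pluripotency genes moved both ways, where 2.01% of all genes rose and 0.984% fell. Of 36 naive genes 4 rose, ARGFX, FGF4, KLF17 and DPPA5 (0.21), and 2 fell, ESRRB (-0.50) and TBX3 (-0.60). Of 36 primed and formative genes 5 rose and 3 fell. With 1 library left out 2 or 3 rose and 1 (without the third DMSO or the second PROTAC library) to 5 (without the first DMSO or the first PROTAC library) fell, and 2 rose when scaled by library size alone. Of these ZIC2, a zinc finger factor of the primed state (chromosome 13), fell from 54.4, 49.1 and 50.6 CPM to 43.4, 35.0 and 39.3 CPM, without overlap (-0.39, SE 0.06, adjusted p = 5.16e-05). ZIC5 (-0.56) and SALL3 (-0.32) fell with it, while SPP1 (0.47), PTPRZ1 (0.33), SFRP1 (0.32), SOX11 (0.24) and HES3 (0.30) rose. SOX2 was the 1 of 19 general pluripotency genes that rose (0.25), and POU5F1 (0.04) and NANOG (0.05) were not called. SOX11 was lower with UNC1999 (-0.31), a difference between the compounds of 0.55 (adjusted p = 6.76e-07).

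No trophoblast gene rose, where 2.01% of all genes rose and 0.984% fell. Of 35 tested, 0 rose and 2 fell, both of retroviral origin and able to fuse placental cells: ERVW-1 (-0.63) and ERVFRD-1 (-1.05). ERVW-1 measured 1.96, 5.18 and 5.00 CPM with DMSO and 0.92, 3.69 and 3.72 CPM with UNC6852, so the number 1 libraries of both groups were lowest and the groups overlapped. ERVFRD-1 measured 0.47, 2.34 and 1.56 CPM with DMSO and 0.30, 0.95 and 0.76 CPM with UNC6852, so its groups overlapped too. ERVFRD-1 also shares its locus with SMIM13, which measured 0.11 and was not called. The median of the list was -0.17, with 29 of 35 negative. GATA3 measured -0.45 (adjusted p = 0.209) and CGA, the hormone alpha subunit, -0.32 (adjusted p = 0.799); CGA ranged from 1.67 to 24.6 CPM with the number 1 libraries lowest. With UNC1999 GATA3 was lower still (-1.52), by 1.07 (adjusted p = 0.00105). With 1 library left out 0 to 3 trophoblast genes fell and 0 rose. Of 18 amnion genes 2 rose (BMP4, GADD45G), of 27 mesoderm genes 2 rose (FOXC2, TWIST1) and NKX2-5 fell, and of 17 endoderm genes LAMB1 and HNF4A rose.

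Chromatin and developmental regulators gave single genes. SMARCA2, an ATPase of the SWI/SNF remodeller (chromosome 9), measured 52.5, 49.6 and 52.9 CPM with DMSO and 72.1, 67.1 and 70.8 CPM with UNC6852. Every PROTAC library lay above every DMSO library, and the 3 pair ratios were 0.46, 0.44 and 0.42 (0.44, SE 0.05, adjusted p = 3.04e-06). With UNC1999 it was 0.80, larger by 0.36 (adjusted p = 1.45e-05). BBX (0.40), an HMG-box protein, and CACHD1 (0.47), a calcium channel regulator, rose without overlap; they rose more with UNC1999, by 0.23 (adjusted p = 0.00479) and 0.20 (adjusted p = 0.020). Of 31 Polycomb complex 1 subunits only BCORL1 rose (0.29), and of 28 histone methyl writers and erasers and 16 DNA methylation genes 0 were called. Of 38 forkhead genes 4 rose and FOXO4 fell (-0.53), beside 2.01% and 0.984% of all genes. FOXD1 measured 8.07, 5.6 and 5.8 CPM with DMSO and 12.3, 7.07 and 8.93 CPM with UNC6852 (0.51, adjusted p = 0.00515), overlapping between groups. With UNC1999 FOXD1 was lower (-0.41), a difference of 0.93 (adjusted p = 4.38e-07). Of 15 HOX genes tested, HOXB2 rose (0.28). PEG10, an imprinted gene of retrotransposon origin, rose from 109, 148 and 99.4 CPM to 168, 186 and 136 CPM (0.47, adjusted p = 7.62e-07), with each pair rising and the groups overlapping.

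Among 40 matrix and adhesion genes 7 rose and 0 fell, beside 2.01% and 0.984% of all genes. Those that rose included the integrins ITGB1 (0.23) and ITGB5 (0.20), the laminin LAMB1 (0.24), the matrix protein EGFLAM (0.69) and the desmosomal cadherin DSG3 (0.65). With 1 library left out this count was 3 to 7, and it was 0 without number 2. COL6A1 rose (0.36), while COL1A1 fell from 103, 91.4 and 66.4 CPM to 72.6, 71.5 and 60.3 CPM (-0.34, adjusted p = 0.000714), the third DMSO library lying among those of the degrader. COL1A1 fell further with UNC1999 (-0.96), by 0.62 (adjusted p = 1.11e-08). MMP2, a matrix metalloprotease, fell without overlap (-0.34, adjusted p = 0.000645).

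The largest falls were of genes at low levels. CSMD1, a large membrane protein with complement-control domains, measured 3.34, 2.09 and 2.10 CPM with DMSO and 1.56, 0.728 and 1.20 CPM with UNC6852. The groups did not overlap (-1.17, SE 0.20, adjusted p = 0.000449). With UNC1999 it was -2.33, a difference of 1.16 (adjusted p = 0.00152), while CSMD2 (0.16) and CSMD3 (-0.04) were not called. CLEC9A, a lectin receptor of dendritic cells, fell by 1.12 on the log2 scale without overlap. CARMN (-1.10), LRRN2 (-1.05), AADACL3 (-0.90), POU2AF1 (-0.89) and ABCC2 (-0.82), a drug transporter, fell too. For AADACL3 and POU2AF1 the groups overlapped.

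Several non-coding transcripts fell. LINC01108 (chromosome 6) measured 24.4, 11.7 and 29.1 CPM with DMSO and 15.0, 6.87 and 14.6 CPM with UNC6852 (-0.82, SE 0.08, adjusted p = 6.5e-08), the number 2 library lowest in each group. MIR205HG, the host transcript of miR-205 (chromosome 1), fell from 48.0, 47.5 and 61.7 CPM to 31.8, 34.4 and 41.4 CPM, without overlap (-0.55, adjusted p = 2.63e-07). PHKA2-AS1 fell (-0.83, adjusted p = 0.000101) while PHKA2, which overlaps it on the other strand, measured -0.04. LINC01356 (-0.43) and MEG9 (-0.29) fell; LINC01356 overlaps SLC16A1-AS1, which measured -0.11 and was not called. Over all levels, 33 of 1660 intergenic lincRNAs (1.99%), 12 of 1640 antisense RNAs (0.732%) and 139 of 15900 coding genes (0.874%) fell, beside 0.984% of all genes. At 5 CPM or more, a limit set after the data were seen, 7 of 129 antisense RNAs fell (5.43%) and 1 rose. There 21 of 196 intergenic lincRNAs fell (10.7%) and 2 rose, against 112 (0.960%) and 446 (3.82%) of 11663 coding genes. Of other types 13 of 248 fell (5.24%), of entries without a GENCODE type 23 of 424 (5.42%), and of pseudogenes 0 of 11. The types were not matched for level. Among all genes the share that fell was 2.06% at 5 to 20 CPM and 0.696% at 50 CPM or more. This split by type was not repeated in the alternative fits. Of the called genes with a GENCODE type, 98.8% of those that rose and 69.8% of those that fell were coding, beside 77.4% of all.

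Called rises were also more frequent in abundant and in long genes. The share that rose went from 0.697% at 1 to 5 CPM to 5.63% at 50 CPM or more, while the share that fell was highest at 5 to 20 CPM (2.06%). The median SE was 0.172 at 1 to 5 CPM and 0.053 at 50 CPM or more, and its part in these shares was not tested. Among coding genes of at least 5 CPM the share that rose was 2.30% to 3.4% below 50 kb and 8.46% at 200 kb or more, and the share that fell did not follow (0.605% at 200 kb or more). The long genes were above those below 50 kb in each of the other scalings, filters, tools and library sets run for the paired fit (the stricter thresholds were not run here), from 1.81% against 0.529% (without number 2) to 9.92% against 4.01% (DESeq2). This split by level and span was chosen after the data were seen.

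**Figure D5:**
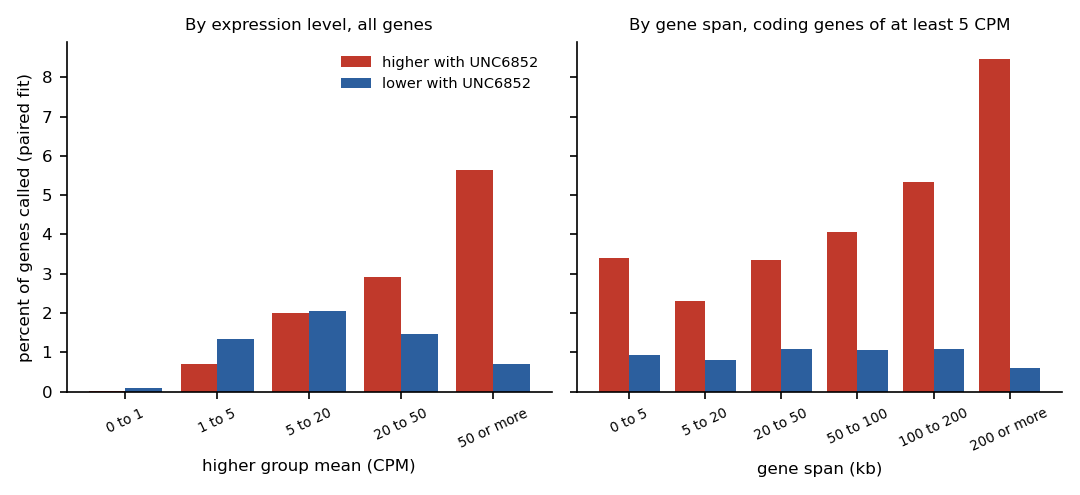
Bars give the percent of genes that rose (red) and fell (blue) in the paired fit, on the left by the higher group mean in CPM for all genes and on the right by gene span in kb for coding genes of at least 5 CPM. Rises reach 5.63% at 50 CPM or more and 8.46% at 200 kb or more.

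Set beside UNC1999, 30 of the 117 named genes differed between degrader and inhibitor in the paired fit, beside 2.91% of all genes; by group alone 0 did. The named genes were chosen on the same PROTAC libraries, so nothing is read from that share.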

How the data were processed

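Per the labels' protocols, libraries came from a Watchmaker kit after removal of ribosomal RNA, whereas the molecule field names polyA RNA; which applies is not known. The submitters' processing notes list Trim Galore 0.6.10, HISAT2 2.2.1 and the build GRCh38. The authors deposited raw counts, whole numbers without normalisation, for 56312 gene entries. Which tool, annotation release and strand setting produced them is not given in the sources used here, so overlapping genes can share reads.

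The tests used edgeR 4.0.16 (R 4.3.3) with TMM scaling, its default expression filter, robust quasi-likelihood fits of all 9 libraries, a two-sided test and Benjamini-Hochberg adjustment over the 24187 genes tested. The model held the group alone, or the group and the replicate number as a block (the paired fit). The fit by group alone was planned as the main one and called no gene, so the report rests on the paired fit. The design text says that the experiment was done independently 3 times, and the labels do not say that a number marks 1 run. Correlations of deviations from group means were 0.128 to 0.298 between same-numbered DMSO and PROTAC libraries and -0.231 to -0.0216 between others, and at least 0.106 for the 9 same-number pairs of all groups, above the 0.1 required. Deviations from a group mean cancel out, so positive same-number values push the others negative, and that contrast adds no separate evidence. The block lowered the common coefficient of variation from 13.2% to 6.09%. Replicates differed beyond counting noise (chi-square over degrees of freedom 11.4 to 38.3). CPM are TMM-scaled.

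The first fit run left out 5 entries without an identifier (491 higher, 239 lower); they name genes and were then included. The members and lists were chosen with earlier results of these data known. Named genes were the 12 largest rises and falls with a symbol and at least 1 CPM, the 8 largest of each with at least 50 CPM, and up to 4 called members per list by smallest p, or 2 by level where none was called, besides the PRC2 genes EED, SUZ12, EZH1 and EZH2. Other list members were named after their values were seen. A planned check of CpG content in promoters is void, because only 78.6% of the genes that rose and 53.4% of those that fell had a promoter sequence, under the 80% required. Gene types came from GENCODE 29, matched for 20539 genes. The model was tested on simulated data that had a shared effect of the replicate number built in. Such data cannot show that the numbers pair the real libraries. The planted changes were larger than most of those called here. Alternatives were other scalings, filters and thresholds, DESeq2 1.42.0, limma 3.58.1 (voom), thinned counts, the 6 libraries alone and leaving out libraries. Some genes that enter the counts are not reported here by name.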

Additional observations from a re-analysis of the deposited data

How the results depend on the processing

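By group alone, the counts of 0 higher and 0 lower became 35 and 37 with no filter, 13 and 10 with DESeq2, and 486 and 238 with the replicate block, and stayed at 0 under the other alternatives run. In the paired fit, the 486 higher genes became 308 with upper-quartile scaling, 273 with library size only, 293 with the 6 libraries alone, 189 at a false discovery rate of 0.01, 3 when a change of 2-fold or more was also required and 0 with no replicate block. The 238 lower genes became 382 with limma-voom, 142 with the 6 libraries alone, 76 at 0.01, 15 at 2-fold or more and 0 with no replicate block. Leaving out libraries or numbers gave 91 to 391 higher and 56 to 248 lower genes. The other alternatives stayed within 1.5 times, and every one of the 724 genes kept its sign wherever it was fitted. A kept sign is no separate support, because all 724 were called with 1 direction in every pair. The number of named genes that differed between degrader and inhibitor was 0 by group alone and 30 with the replicate block.

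Of the 96 named genes called in the paired fit, 334 of 864 leave-out values were no longer called and 0 changed sign; under the other alternatives 68 of 957 were no longer called and 0 changed sign. For each list with a called member, a count moved by more than 1.5 times in at least 1 fit that left out a library or a number. The cholesterol count went from 19 to as few as 9 and the stress count from 10 to as few as 2. Changes under about 0.2 on the log2 scale were seldom called (the smallest called rise was 0.17), and the third PROTAC library, at 31651742 counts, limits the genes at low levels.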
